A study of Rattus norvegicus with 60 samples.

Results

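The choroid plexus genes Ttr, Sostdc1, Igfbp2, Kl, Prlr, Aqp1, Folr1 and Clic6 were followed on the 60 arrays of a rat brain study. All probe sets that the array annotation assigned to exactly 1 of these symbols were taken, which gave 10 probe sets of 7 genes out of 31042 probe sets tested (14217 genes with a single symbol). No probe set was named for Clic6, a chloride channel family member, so 7 of the 8 genes were measured. Rats of the strain labelled SD received lithium chloride (LiCl) at 0.2% in chow, the plain chow that served as its vehicle, lamotrigine at 30 mg/kg by subcutaneous injection once daily, or injections of its vehicle, all for 21 days. Some labels name mouse tissue and the same delivery for all groups, whereas organism, strain and titles give rats and the arms above. Hippocampus, cortex and striatum were dissected, which gave 12 groups of 5 arrays. The labels carry numbers of 24 animals, and nothing else states that the samples of a group came from separate rats, so p-values measure the spread between these samples. The question put to the 10 probe sets was how far they varied between rats of the same group and whether they differed with either drug or between regions.

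The choroid plexus is a folded epithelium around leaky capillaries that hangs in the ventricles and secretes cerebrospinal fluid. Its epithelial cells express transthyretin and a set of transporters, receptors and secreted factors at far higher levels than neurons or glia do. The plexus of the lateral ventricle lies against the hippocampus and the striatum, whereas cortex is separated from it and is covered by the meninges.

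Regional identity of the samples was checked with marker lists. Mean log2 intensity of 6 hippocampal neuron genes lay between 7.16 and 7.60 in hippocampus, between 5.89 and 6.17 in cortex and between 4.95 and 5.65 in striatum. Cortical neuron genes (7 measured) lay between 8.18 and 8.77 in cortex, against at most 7.37 in hippocampus and 7.94 in striatum, and 9 medium spiny neuron genes lay between 11.1 and 11.8 in striatum, against at most 7.20 in hippocampus and 7.58 in cortex. The neuron lists of each region were thus highest in the arrays labelled as that region, with no overlap. All levels below are log2 intensities of the deposited values, which rank arrays for 1 probe set but not 1 gene against another.

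Ttr, which encodes transthyretin, the carrier of thyroid hormone and retinol-binding protein in cerebrospinal fluid, varied most. Over the 60 arrays its level ran from 5.97 to 14.66 with a median of 8.26. Its SD within groups was 2.36, against a median of 0.15 over all 31042 probe sets, and ranked first among them. The same SD was 2.94 in hippocampus (rank 1), 1.45 in cortex (rank 5) and 2.44 in striatum (rank 5).

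In hippocampus, Ttr measured 9.26, 14.07, 7.30, 13.06 and 7.50 in the LiCl arrays, against 8.44, 7.54, 7.30, 7.07 and 13.14 in the chow vehicle arrays. It measured 12.59, 9.55, 5.97, 11.97 and 8.02 in the lamotrigine arrays, against 14.26, 8.12, 14.03, 8.33 and 8.15 in the injection vehicle arrays. Every group held at least 1 array at 12 or above beside arrays near 8 or lower, so the ranges of all 4 groups overlapped widely. In cortex, the levels were 7.15, 10.47, 8.37, 8.25 and 6.69 with LiCl, against 5.98, 6.68, 6.76, 6.25 and 6.69 with chow vehicle. They were 7.35, 6.47, 6.06, 6.58 and 7.15 with lamotrigine, against 8.20, 6.98, 7.90, 6.85 and 12.74 with injection vehicle. Cortex thus held a single array above 12, the fifth of the injection vehicle. In striatum, the levels were 14.52, 14.37, 12.07, 10.72 and 11.53 with LiCl, against 10.77, 7.58, 9.05, 8.26 and 8.39 with chow vehicle. They were 9.17, 7.71, 14.49, 8.17 and 14.50 with lamotrigine, against 7.77, 14.66, 12.34, 11.21 and 8.64 with injection vehicle. Of the striatum groups only the chow vehicle stayed below 12.

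**Figure D1:**
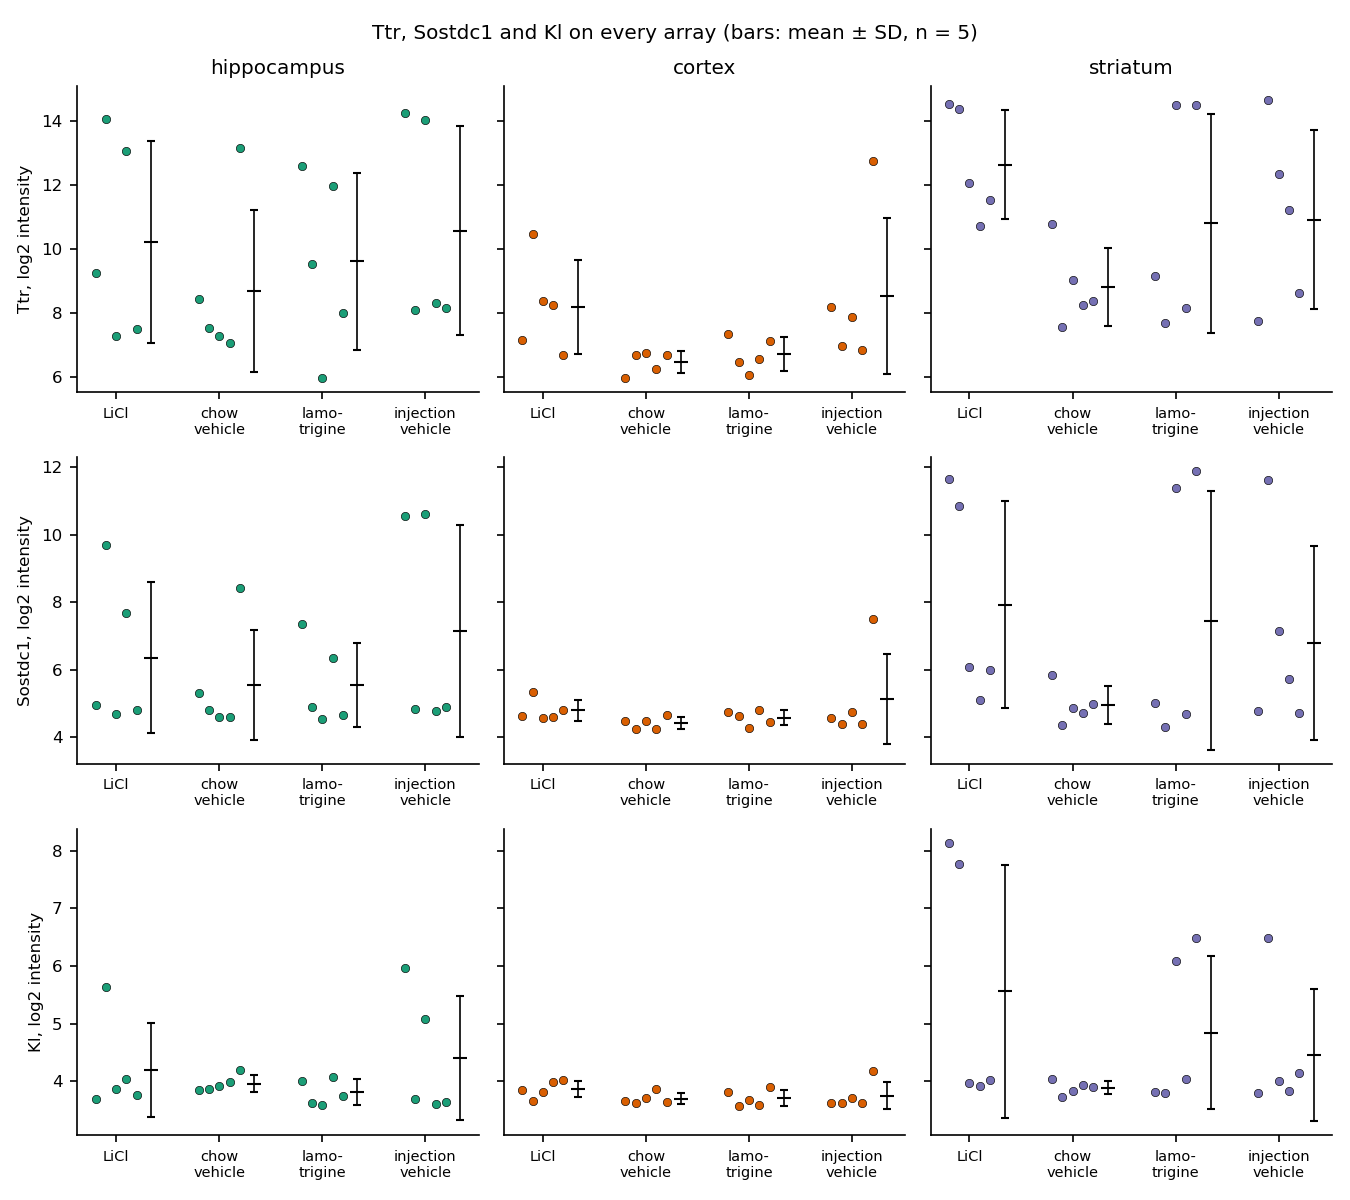
Log2 intensity of Ttr (top row), Sostdc1 (middle row) and Kl (bottom row) on each array, with hippocampus, cortex and striatum in columns. Points are the 5 arrays of a group and bars the mean ± SD. Ttr reached 14.66 in striatum and the same few arrays stood highest for all 3 genes there, while Kl stayed at 4.19 or below on 52 of the 60 arrays.

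A level of 12, chosen after the values were seen, was reached by Ttr on 14 of the 60 arrays. They comprised 6 of 20 in hippocampus, 1 of 20 in cortex and 7 of 20 in striatum. By treatment over the 3 regions they comprised 5 of 15 LiCl arrays and 1 of 15 chow vehicle arrays, and 3 of 15 lamotrigine arrays and 5 of 15 injection vehicle arrays. Drug and vehicle groups both held such arrays. In bulk tissue, fewer cells of a type and less RNA per cell cannot be told apart.

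The promoters of Ttr and Kl are shown because Kl left its low level on fewer arrays than Ttr did, as described below. Sequences are from RefSeq on build GRCr8, each with 250 bases before and 50 after the annotated start. Promoters were found for 5 of the 8 genes. Capitals mark TAATC on either strand (TAATC or GATTA), the core of the site bound by Otx2 and related homeodomain proteins, of which Otx2 is needed in mice for choroid plexus to form.
Ttr promoter, chr18:12218508-12218807, + strand: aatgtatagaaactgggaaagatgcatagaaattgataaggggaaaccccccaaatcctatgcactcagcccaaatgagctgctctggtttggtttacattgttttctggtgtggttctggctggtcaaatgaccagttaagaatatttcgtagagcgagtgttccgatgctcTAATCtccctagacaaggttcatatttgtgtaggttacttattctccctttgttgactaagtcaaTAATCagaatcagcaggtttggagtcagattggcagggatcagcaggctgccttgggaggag
Kl promoter, chr12:5325753-5326052, + strand: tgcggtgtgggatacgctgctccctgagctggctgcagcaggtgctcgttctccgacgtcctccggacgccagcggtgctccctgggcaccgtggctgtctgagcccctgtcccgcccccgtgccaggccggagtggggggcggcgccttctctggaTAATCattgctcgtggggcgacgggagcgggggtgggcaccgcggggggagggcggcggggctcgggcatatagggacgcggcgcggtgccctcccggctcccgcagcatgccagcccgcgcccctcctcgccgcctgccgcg
The core occurred 2 times in the Ttr promoter and 1 time in the Kl promoter, and 22.9% of 33469 promoters of the same length held it at least once. The longer form TAATCC was in neither and in 7.17% of all promoters, and the forkhead motif TGTTTAC was in neither and in 3.78%. In the member windows not shown, TAATC occurred 0 times for Aqp1, 0 times for Igfbp2, and 0 and 1 times in the windows of Prlr. These letters describe the windows and are not evidence of binding. The windows of Ttr and Kl differed in base composition, with 43.7% G and C and 3 CG dinucleotides for Ttr and 75.0% and 35 for Kl, against medians of 51.7% and 7 over all promoters.

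Sostdc1, a secreted antagonist of bone morphogenetic protein and Wnt signalling, followed Ttr most closely of the member genes. Its level ran from 4.24 to 11.87 with a median of 4.81, and its SD within groups of 2.11 had rank 3 of all probe sets. In striatum it measured 11.64, 10.85, 6.07, 5.09 and 5.98 with LiCl, against 5.86, 4.35, 4.86, 4.71 and 5.00 with chow vehicle. It measured 5.00, 4.31, 11.39, 4.70 and 11.87 with lamotrigine, against 4.79, 11.61, 7.14, 5.74 and 4.71 with injection vehicle. The 5 highest striatum arrays for Sostdc1 were the 5 highest for Ttr. In hippocampus it measured 4.95, 9.69, 4.69, 7.67 and 4.80 with LiCl, against 5.31, 4.81, 4.61, 4.61 and 8.43 with chow vehicle. It measured 7.35, 4.89, 4.54, 6.36 and 4.66 with lamotrigine, against 10.55, 4.84, 10.60, 4.80 and 4.90 with injection vehicle. The 5 highest arrays were again those of Ttr, whereas in cortex, where 19 of 20 arrays stayed at 5.34 or below, 2 of 5 were shared.

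Folr1, the folate receptor that carries folate into cerebrospinal fluid, ran from 5.10 to 11.03 with a median of 5.88. In striatum it measured 11.03, 10.33, 6.26, 5.98 and 6.82 with LiCl, against 6.59, 5.85, 6.16, 5.95 and 6.27 with chow vehicle. It measured 6.49, 6.16, 10.54, 5.51 and 10.82 with lamotrigine, against 5.65, 10.93, 6.43, 6.50 and 6.37 with injection vehicle. The arrays at 10 or above were the 5 on which Ttr exceeded 14.3.

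Kl encodes klotho, the co-receptor for fibroblast growth factor 23, which is also shed into cerebrospinal fluid. It left its low level on fewer arrays than Ttr did, with a median of 3.85 and a highest value of 8.15. In striatum it measured 8.15, 7.78, 3.96, 3.91 and 4.02 with LiCl, against 4.04, 3.72, 3.84, 3.93 and 3.90 with chow vehicle. It measured 3.81, 3.79, 6.09, 4.03 and 6.49 with lamotrigine, against 3.79, 6.49, 4.00, 3.83 and 4.15 with injection vehicle. In hippocampus 3 arrays exceeded 5, LiCl array 2 with 5.63 and injection vehicle arrays 1 and 3 with 5.97 and 5.09. Cortex ran from 3.57 to 4.17.

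The members left their low levels at different levels of Ttr, shown here by bands of Ttr that were set after the values were seen. On the 24 arrays with Ttr below 8 the median was 4.61 for Sostdc1, 5.48 for Folr1 and 3.74 for Kl. On the 6 arrays with Ttr from 10 to 12 it was 5.80 for Sostdc1, 6.24 for Folr1 and 3.96 for Kl. On the 6 arrays from 12 to below 14 it was 7.42 for Sostdc1, 6.61 for Folr1 and 4.02 for Kl. On the 8 arrays at 14 or more it was 11.12 for Sostdc1, 10.43 for Folr1 and 6.29 for Kl. Sostdc1 therefore stood higher in every band, Folr1 in small steps until the last, and Kl almost only in the last. The bands pooled the regions, which were not evenly spread over them. On arrays with Ttr below 10 the Folr1 median was already 5.39 in cortex, 5.82 in hippocampus and 6.16 in striatum. The small steps of Folr1 thus cannot be told apart from the mix of regions.

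These 8 arrays spanned 0.63 for Ttr, from 14.03 to 14.66, but 2.18 for Sostdc1, 2.74 for Folr1 and 3.06 for Kl. On each of them between 1 and 9 probe sets of the array stood above Ttr, and the highest log2 value of the whole table was 14.80. Ttr was thus close to the top of the measured range there. All 8 lay above the other 52 arrays for 7 of the 9 other member probe sets, the exceptions being 1 probe set each of Prlr and Aqp1. The 8 were picked by their Ttr level, and the share of all probe sets that set them apart likewise was not computed.

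**Figure D2:**
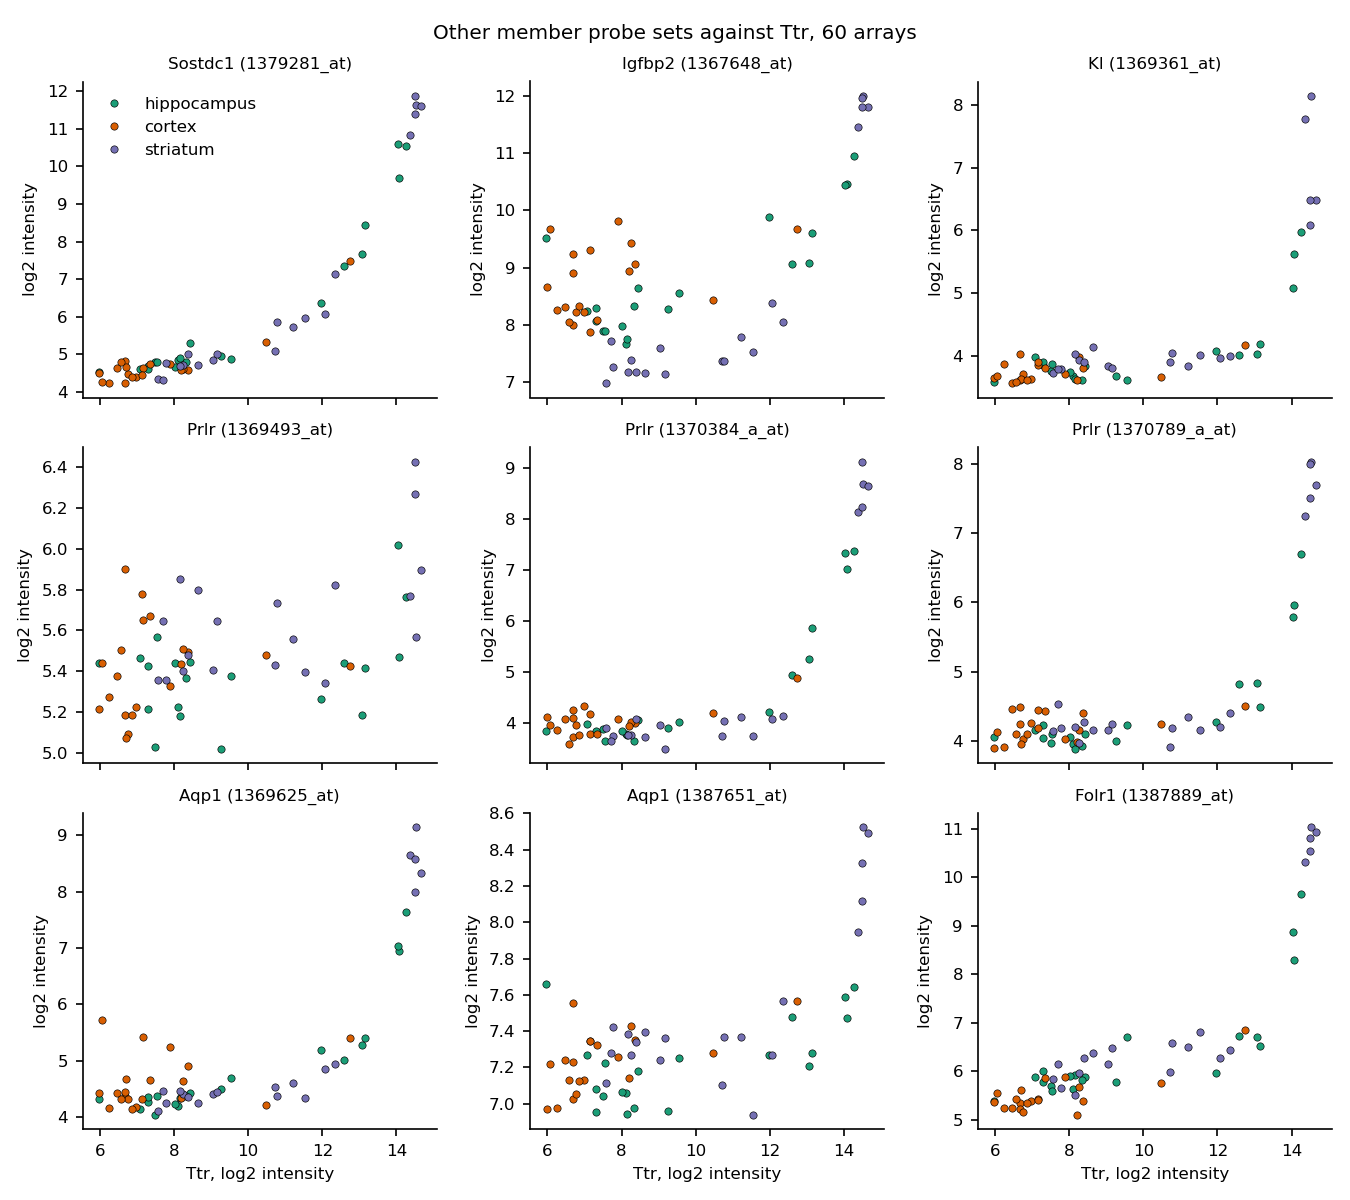
Log2 intensity of the 9 other member probe sets (vertical axes, own scale in each panel) against that of Ttr (horizontal axes) on 60 arrays, with hippocampus in green, cortex in orange and striatum in violet. Sostdc1 bends upward from a Ttr level near 10, and Kl and Folr1 steeply above 14. Igfbp2 in cortex, between 7.87 and 9.82, does not follow Ttr.

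Likeness to Ttr is given as Pearson's r over the 60 arrays after subtraction of group means. It was 0.90 for Sostdc1, 0.79 for Folr1, 0.74 for Igfbp2 and 0.67 for Kl. Arrays share the normalization and partly the rat, so these values are descriptions. In cortex r was 0.88 for Sostdc1 and 0.79 for Folr1, but 0.45 for Kl and 0.24 for Igfbp2.

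Prlr, the receptor for prolactin and abundant in choroid plexus, had 3 probe sets of unlike range. Probe set 1370384_a_at ran from 3.49 to 9.13 and probe set 1370789_a_at from 3.88 to 8.03, with r to Ttr of 0.79 and 0.73. Probe set 1369493_at, the one with the highest mean, ran only from 5.02 to 6.43 with r of 0.59. By region its r was 0.05 in cortex, 0.55 in hippocampus and 0.845 in striatum. In striatum that was close to the 0.868 of 1370384_a_at and the 0.848 of 1370789_a_at. Its highest values, 6.43 and 6.27, were those of lamotrigine striatum arrays 3 and 5, where Ttr measured 14.49 and 14.50. In striatum, 1370384_a_at measured 8.69, 8.13, 4.08, 3.74 and 3.74 with LiCl, against 4.03, 3.89, 3.95, 3.77 and 4.07 with chow vehicle. On the same arrays 1369493_at measured 5.57, 5.77, 5.34, 5.43 and 5.39 with LiCl, against 5.73, 5.36, 5.41, 5.40 and 5.48 with chow vehicle. LiCl arrays 2 and 3 were thus about 4 log2 units apart by 1370384_a_at but less than 1 apart by 1369493_at.

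Aqp1, the water channel of the epithelium's apical membrane, had 2 probe sets with the same contrast. Probe set 1369625_at ran from 4.04 to 9.14 with r to Ttr of 0.76, and probe set 1387651_at from 6.94 to 8.52 with r of 0.66. With LiCl in striatum, 1369625_at measured 9.14, 8.64, 4.85, 4.54 and 4.33, against 4.37, 4.11, 4.41, 4.41 and 4.35 with chow vehicle. On the same arrays 1387651_at measured 8.52, 7.94, 7.27, 7.10 and 6.94 with LiCl, against 7.37, 7.11, 7.24, 7.27 and 7.34 with chow vehicle. Both were highest on LiCl arrays 1 and 2. Ttr measured 14.52 and 14.37 there.

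Igfbp2, a secreted binding protein for insulin-like growth factors made by choroid plexus and by the meninges, followed Ttr in striatum but not in cortex. In striatum it measured 11.999, 11.45, 8.39, 7.37 and 7.53 with LiCl, against 7.37, 6.98, 7.60, 7.38 and 7.17 with chow vehicle. It measured 7.14, 7.72, 11.80, 7.17 and 11.96 with lamotrigine, against 7.26, 11.80, 8.05, 7.79 and 7.16 with injection vehicle. In cortex it measured 9.31, 8.43, 9.06, 9.42 and 7.99 with LiCl, against 8.66, 9.23, 8.23, 8.25 and 8.91 with chow vehicle. It measured 8.09, 8.31, 9.68, 8.06 and 7.87 with lamotrigine, against 8.95, 8.22, 9.82, 8.33 and 9.67 with injection vehicle. Lamotrigine cortex array 3, high for Igfbp2, had a Ttr level of only 6.06, and lamotrigine hippocampus array 3 likewise had 9.52 for Igfbp2 and 5.97 for Ttr, the lowest Ttr level of all arrays.

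Beside these values stood a list of 18 meningeal fibroblast genes, among them the collagens and the proteoglycans Dcn and Lum, although Igf2 and some others of the list are also made in choroid plexus. Its mean level was 7.71 on lamotrigine cortex array 3, the highest of all arrays, and between 6.10 and 6.17 on the other 4 of that group. On lamotrigine hippocampus array 3 it was 7.30. In cortex the r of Igfbp2 was 0.91 to this list and 0.24 to Ttr, and the r of Aqp1 probe set 1369625_at was 0.91 to the list and 0.21 to Ttr, whereas that of Ttr to the list was 0.02. All 5 of the highest cortex arrays for Igfbp2 and 4 of 5 for Aqp1 1369625_at were among the 5 highest for the meningeal list. They also shared 4 of 5 each with the other choroid plexus genes and 4 of 5 each with endothelial genes, and in cortex the r to other choroid plexus genes was 0.59 for Igfbp2 and 0.69 for Aqp1 1369625_at. The part of meningeal, vascular or choroid plexus RNA in these values was not tested. In striatum the 5 highest arrays were the same for Ttr, Igfbp2 and the meningeal list, and r of Ttr to the list was 0.86.

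**Figure D3:**
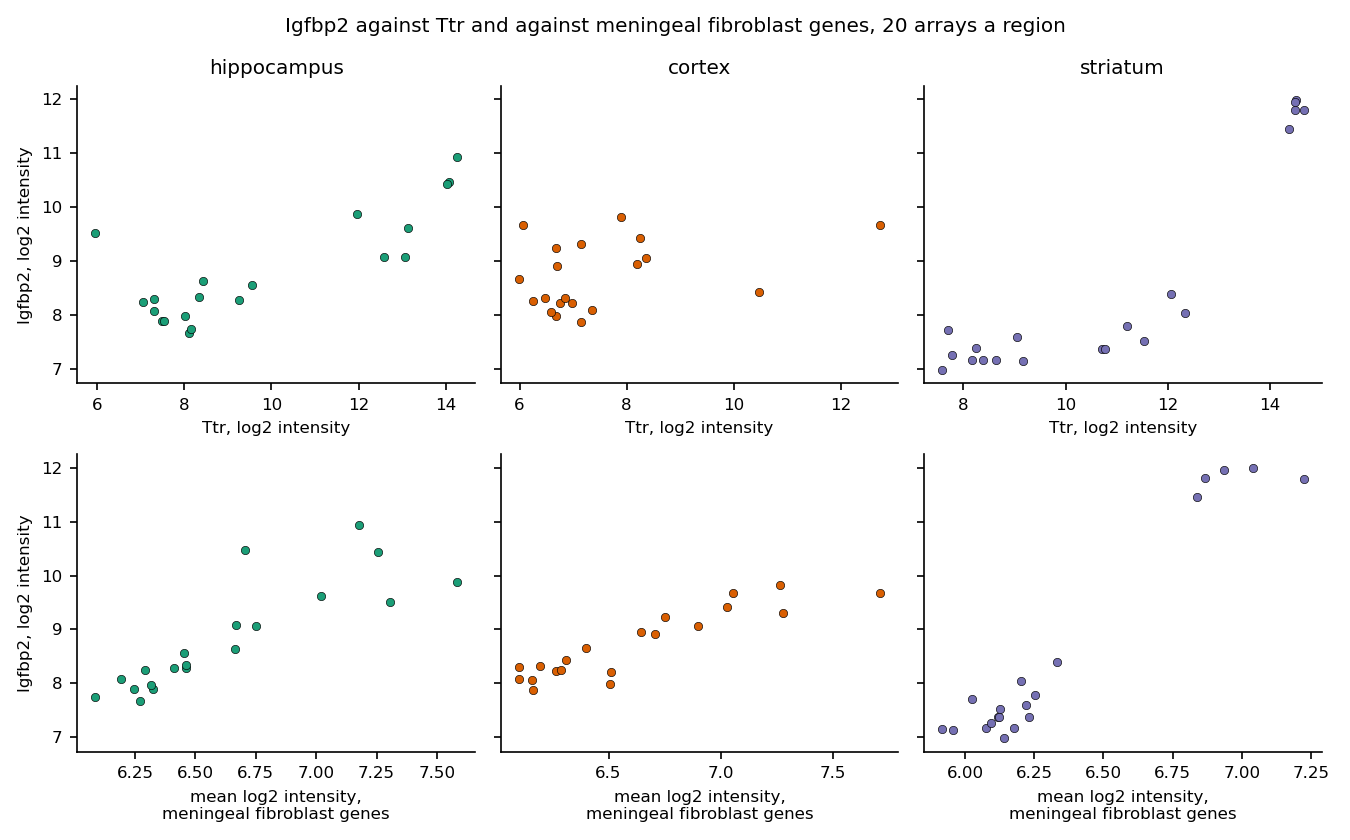
Log2 intensity of Igfbp2 (vertical axes) against Ttr (top row) and against the mean log2 intensity of 18 meningeal fibroblast genes (bottom row), 20 arrays a region. In cortex Igfbp2 lines up with the meningeal list (r = 0.91 after subtraction of group means) and not with Ttr (r = 0.24).

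In the injection arm, all 10 animals gave an array from each region, so levels could be followed within an animal. Of these animals, 7 had at least 1 array with Ttr at 12 or more, 8 arrays in all, and 1 animal had 2. That animal, number 27 of the injection vehicle, measured 14.03 in hippocampus, 12.34 in striatum and 7.90 in cortex. Animal 13, given lamotrigine, measured 14.49 in striatum, 6.06 in cortex and 5.97 in hippocampus. The lowest Ttr level of the study and 1 of its highest thus came from 1 animal number. A high level in 1 region was thus mostly not shared by the other regions of the same animal. In the LiCl and chow vehicle groups the hippocampus samples carry other animal numbers than cortex and striatum in part, and such a reading was not made.

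**Figure D4:**
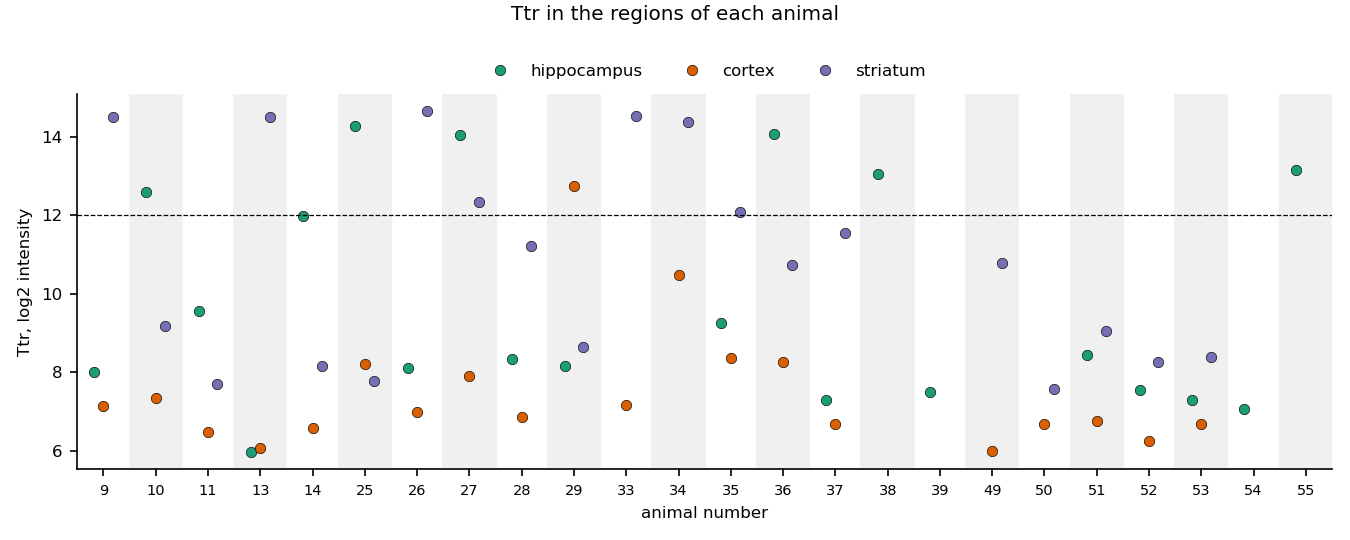
Log2 intensity of Ttr by animal number, with hippocampus in green, cortex in orange and striatum in violet and a dashed line at 12. Animals 9 to 14 received lamotrigine and 25 to 29 its vehicle, animals 33 to 39 LiCl and 49 to 55 chow vehicle. Within the injection arm, animal 27 alone has 2 points above the line.

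LiCl was compared with chow vehicle in each region by limma, with 5 arrays a group and p-values adjusted over all 31042 probe sets. In hippocampus no member probe set was called, against 0.235% of all probe sets. Ttr averaged 10.24 ± 3.15 with LiCl and 8.70 ± 2.54 with chow vehicle (SD, n = 5 each), a difference of 1.54 ± 1.61 (SE). Differences of the other probe sets ran from -0.28 for Prlr 1369493_at to 0.80 for Sostdc1, and the median over the 7 genes was 0.24, against 0.00 over all probe sets. Of the 10 probe sets, Prlr 1369493_at had an unadjusted p under 0.05 there, and with a robust fit it was called (-0.32, adjusted p = 0.00701). The shares of all probe sets given here and below are those of the main fit. Calls by other fits or with arrays left out have no such share beside them.

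In cortex, 2 of the 10 probe sets were called, both higher with LiCl and the flattest ones of Prlr and Aqp1. Of all probe sets 13.4% were called, 1619 higher and 2545 lower. Prlr 1369493_at measured 5.65, 5.48, 5.50, 5.51 and 5.90 with LiCl, against 5.21, 5.18, 5.10, 5.27 and 5.07 with chow vehicle, a difference of 0.44 ± 0.10 (adjusted p = 0.00756). Aqp1 1387651_at measured 7.34, 7.28, 7.35, 7.43 and 7.55 with LiCl, against 6.97, 7.02, 7.05, 6.98 and 7.23 with chow vehicle, a difference of 0.34 ± 0.08 (adjusted p = 0.0143). The groups did not overlap for either, and both calls held with any single array left out. Of all probe sets 9478 had an unadjusted p under 0.05 by limma in this comparison, and how many did not overlap was not counted. The arrays of these groups differed in spread, with an interquartile range of log2 values from 3.29 to 3.44 with LiCl and from 3.56 to 3.61 with chow vehicle, and with this range as a covariate the differences were 0.10 (adjusted p = 0.838) and 0.13 (adjusted p = 0.778). Its part in the result was not tested further.

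Other members in cortex were not called. Ttr averaged 8.19 ± 1.47 with LiCl and 6.47 ± 0.34 with chow vehicle, a difference of 1.71 ± 0.77 (adjusted p = 0.134), and 5 of 5 LiCl arrays lay above the chow vehicle mean. Without LiCl replicate 2 it was 1.14 (adjusted p = 0.316). With a robust fit Ttr (1.45, adjusted p = 0.0136), Kl (0.19, adjusted p = 0.0485) and Prlr 1370789_a_at (0.29, adjusted p = 0.0443) were called. The 13.4% of all probe sets above belongs to the main fit and is not a background for these calls. Prlr 1370789_a_at was also called without chow vehicle replicate 2 (0.35, adjusted p = 0.0465). Differences of Sostdc1, Igfbp2, Kl and Folr1 were 0.37 ± 0.37, 0.19 ± 0.34, 0.17 ± 0.10 and 0.19 ± 0.21. Over the 7 genes the median was 0.34, against 0.00 over all probe sets. The meningeal list had a median difference of 0.38 in the same comparison, positive for 17 of 18 genes, of which 3 were called higher and 1 lower.

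In striatum, differences with LiCl were the largest of any group comparison for all member probe sets but Prlr 1369493_at (0.02) and Aqp1 1387651_at (0.29). No member was called, as were 0% of all probe sets by limma (3828 had an unadjusted p under 0.05). Ttr averaged 12.64 ± 1.72 with LiCl and 8.81 ± 1.22 with chow vehicle, a difference of 3.83 ± 1.36 (unadjusted p = 0.0105, adjusted p = 0.296). The ranges touched only through LiCl array 4 with 10.72 and chow vehicle array 1 with 10.77, and 5 of 5 LiCl arrays exceeded the chow vehicle mean. For the other probe sets, apart from Prlr 1369493_at, the mean was carried by LiCl arrays 1 and 2. Sostdc1 differed by 2.97 ± 1.59 in means but by 1.21 in medians, Kl by 1.68 ± 0.79 in means but by 0.12 in medians, and Folr1 by 1.92 ± 1.15 in means but by 0.66 in medians. The median over the 7 genes was 1.92, against -0.02 over all probe sets. With the mean of other choroid plexus genes as a covariate, the Ttr difference was 1.87 ± 0.70 (adjusted p = 0.506) and that of Kl 0.45 ± 0.27 (adjusted p = 0.678).

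**Figure D5:**
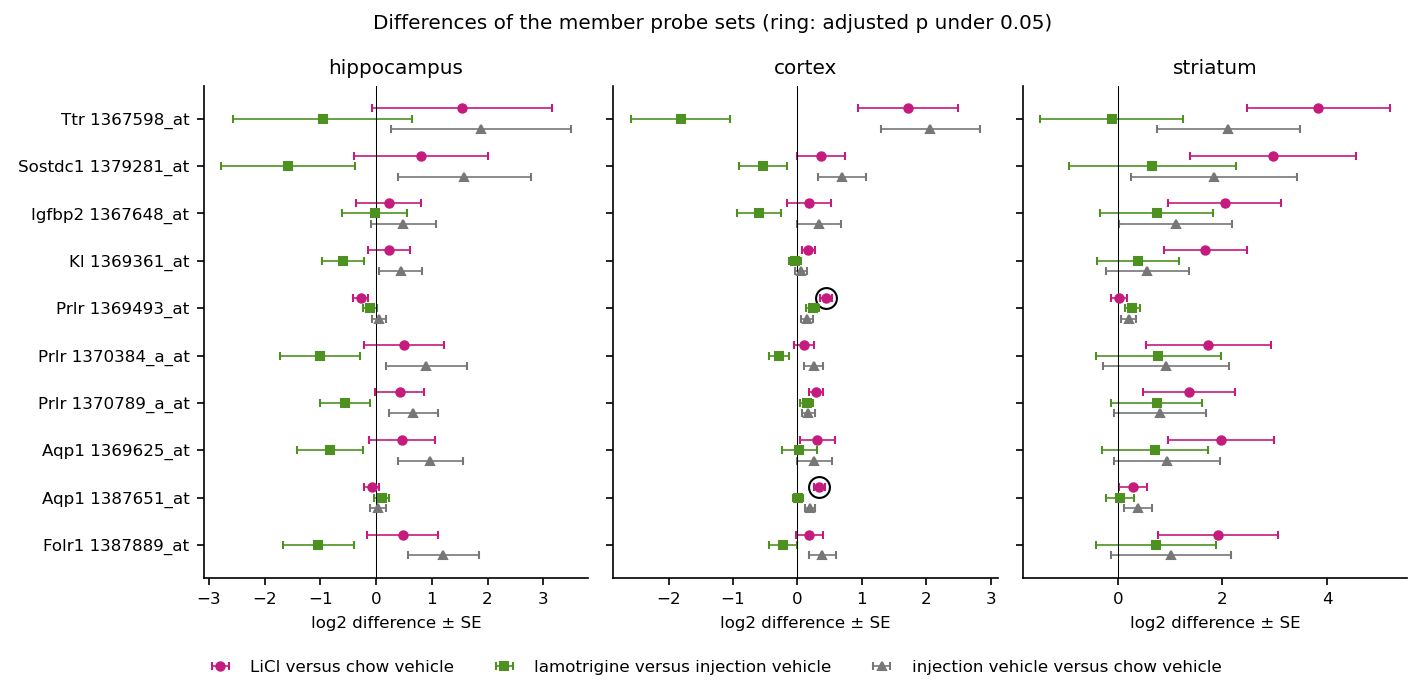
Log2 differences ± SE of the 10 member probe sets (rows) in hippocampus, cortex and striatum, for LiCl versus chow vehicle, lamotrigine versus injection vehicle and injection vehicle versus chow vehicle (5 arrays a group). Rings mark an adjusted p under 0.05, which was reached by Prlr 1369493_at (0.44) and Aqp1 1387651_at (0.34) with LiCl in cortex alone.

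Lamotrigine was compared with injection vehicle in the same way, and no member probe set was called in any region. The share of all probe sets called was 0.00322% in hippocampus, 0% in cortex and 0% in striatum, where 1799 and 1193 probe sets had an unadjusted p under 0.05 in cortex and in striatum. In hippocampus Ttr averaged 9.62 ± 2.75 with lamotrigine and 10.58 ± 3.26 with injection vehicle, a difference of -0.96 ± 1.61 in means but of 1.21 in medians. The direction for Ttr thus depended on the measure, and without injection vehicle replicate 1 the difference of means was -0.041. Sostdc1, Kl and Folr1 differed by -1.58 ± 1.20, -0.59 ± 0.38 and -1.04 ± 0.64 in means but by -0.0092, 0.060 and 0.036 in medians. The injection vehicle held 2 arrays with Ttr above 14 there and lamotrigine none.

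In cortex Ttr averaged 6.72 ± 0.52 with lamotrigine and 8.54 ± 2.42 with injection vehicle, a difference of -1.81 ± 0.77 (unadjusted p = 0.0276, adjusted p = 0.844). Injection vehicle array 5, with 12.74, set much of that vehicle mean, and without it the difference was -0.76. In striatum the difference was -0.12 ± 1.36, with means of 10.81 ± 3.41 for lamotrigine and 10.92 ± 2.79 for injection vehicle. Both striatum groups held 2 arrays at 12 or above.

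Injection vehicle was also compared with chow vehicle, since neither group received a drug. No member probe set was called, against 18.5% of all probe sets in hippocampus, 18.9% in cortex and 6.83% in striatum. Ttr differed by 1.88 ± 1.61 in hippocampus, 2.06 ± 0.77 in cortex (adjusted p = 0.0645) and 2.11 ± 1.36 in striatum. The cortex difference of Ttr was called without injection vehicle replicate 2 or 4 (2.45 and 2.48, adjusted p = 0.0359 and 0.0339) and with a robust fit (1.24, adjusted p = 0.0268). Without injection vehicle replicate 5 it was 1.01 (adjusted p = 0.167). In cortex the 5 injection vehicle arrays all exceeded the 5 chow vehicle arrays for Ttr, and how many of all probe sets separated likewise was not counted. Both this comparison and that of LiCl rest on the chow vehicle arrays. The median over the 7 genes was 0.49 in hippocampus, 0.34 in cortex and 1.01 in striatum. All 7 genes were higher in the injection vehicle mean in each region. By medians, Aqp1 1387651_at (-0.17), Kl (-0.22) and Prlr 1369493_at (-0.080) were lower in hippocampus, and Kl (-0.021) in cortex. With the probe set of highest mean for each gene, all other medians were higher with injection vehicle.

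The LiCl effect minus the lamotrigine effect was called for no member probe set. The share of all probe sets called was 0% in hippocampus (4468 had an unadjusted p under 0.05), 0.0129% in cortex and 0% in striatum (2485 had an unadjusted p under 0.05). The largest differences of effect were 3.95 ± 1.93 for Ttr in striatum (adjusted p = 0.635) and 3.53 ± 1.09 for Ttr in cortex (adjusted p = 0.169). With a robust fit Ttr was called in cortex (2.45, adjusted p = 0.0204) and Prlr 1369493_at in hippocampus (-0.35, adjusted p = 0.0386).

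Whether a drug effect differed between regions was tested by an F test over the 60 arrays. For LiCl 1 member probe set was called, Prlr 1369493_at (F = 8.74, adjusted p = 0.00793), against 17.2% of all probe sets. Its LiCl differences were -0.28 ± 0.13 in hippocampus, 0.44 ± 0.10 in cortex and 0.02 ± 0.14 in striatum. The test was lost after quantile normalization (adjusted p = 0.0576) and with the spread of the array as a covariate (adjusted p = 0.763). For lamotrigine none was called, nor was any other probe set (0%, with 1715 at an unadjusted p under 0.05).

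Regions were compared without drug, over 10 vehicle arrays each. Ttr averaged 9.64 ± 2.93 in hippocampus, 9.87 ± 2.32 in striatum and 7.50 ± 1.96 in cortex (SD, n = 10 each). Medians were 8.24 in hippocampus, 8.84 in striatum and 6.81 in cortex. The striatum difference from cortex was 2.36 ± 0.96 and was called (adjusted p = 0.0332), and the hippocampus difference from cortex was 2.10 ± 0.98 and was not (adjusted p = 0.0786). The call for Ttr was lost when any 1 of 8 of the arrays was left out, with a lowest difference of 1.84 (adjusted p = 0.101) without injection vehicle striatum replicate 2. The others were injection vehicle striatum replicates 3 and 4, chow vehicle striatum replicate 1, injection vehicle cortex replicates 2, 3 and 4 and chow vehicle cortex replicate 1. The hippocampus difference of Ttr was called without injection vehicle cortex replicate 5 (2.69, adjusted p = 0.0211) and without injection vehicle hippocampus replicate 2 or 5 (2.44 and 2.43, adjusted p = 0.0442 and 0.0471).

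Prlr 1369493_at was higher in striatum than in cortex by 0.34 ± 0.08 (adjusted p = 0.000537) and in hippocampus than in cortex by 0.25 ± 0.08 (adjusted p = 0.0153). Without injection vehicle hippocampus replicate 3 the hippocampus difference was 0.19 (adjusted p = 0.0657). Aqp1 1387651_at was higher in striatum than in cortex by 0.31 ± 0.13 (adjusted p = 0.0381), and by 0.20 (adjusted p = 0.16) without injection vehicle striatum replicate 2. This call of Aqp1 was also lost without injection vehicle cortex replicates 1, 2, 3 or 4, chow vehicle cortex replicates 1 or 4 or chow vehicle striatum replicates 1 or 5, without the animal block (adjusted p = 0.0511) and with a replicate block (adjusted p = 0.0538), and that of Prlr with array spread as a covariate (0.23, adjusted p = 0.0702). In all, 1 of the 10 probe sets was called between hippocampus and cortex, 3 between striatum and cortex and 0 between hippocampus and striatum, where 42.4%, 55.9% and 50.9% of all probe sets were called. Between hippocampus and striatum 17392 of all probe sets had an unadjusted p under 0.05 by limma, and none of the member probe sets did. Igfbp2, in contrast to Ttr, had its lowest mean in striatum, with 7.86 ± 1.42, against 8.78 ± 1.15 in hippocampus and 8.83 ± 0.60 in cortex. Without injection vehicle striatum replicate 2, Igfbp2 was called lower in striatum than in cortex (-1.43, adjusted p = 0.0131) and higher in hippocampus than in striatum (1.37, adjusted p = 0.0203). Folr1 differed by 1.15 ± 0.56 between striatum and cortex (adjusted p = 0.0768) and was called without injection vehicle striatum replicate 1 (1.37, adjusted p = 0.0397) or injection vehicle cortex replicate 5 (1.32, adjusted p = 0.0493), and with array spread as a covariate (2.06, adjusted p = 0.0146). Ttr means of striatum and hippocampus differed by less than the SD within either region. The hippocampus difference of Ttr from cortex, 2.10, also lay below the hippocampus SD of 2.93. The striatum difference from cortex, 2.36, was close to the striatum SD of 2.32.

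A further list of 30 genes of choroid plexus, of which 27 were measured, was set beside the members. It was called for 0 genes in each of the 6 drug comparisons, against 13.4% of all probe sets for LiCl in cortex and at most 0.235% in the other 5, with median differences of 0.80 for LiCl in striatum (25 of 27 positive), 0.13 in hippocampus and 0.11 in cortex, and of 0.36, -0.29 and -0.08 for lamotrigine in striatum, hippocampus and cortex. Between the vehicles in hippocampus, where 18.5% of all probe sets were called, 3 of 27 were called, all higher with injection, a share below that background. They were the keratin Krt8, the kinase cofactor Cab39l and the chloride cotransporter Slc12a2. Its mean level on the 8 arrays with Ttr at 14 or more lay between 6.79 and 8.17, and on the 24 with Ttr below 8 between 5.51 and 5.94. The r to Ttr of its genes ran from -0.35 to 0.85 with a median of 0.68 and exceeded 0.5 for 21 of 27. A list of 11 ependymal genes, which mark the ciliated lining of the ventricles, lay between 5.86 and 7.08 on those 8 arrays. On those 24 it lay between 5.14 and 6.35. The 8 came from hippocampus and striatum alone, whereas the 24 included cortex arrays. This list also differed by region, from 5.20 to 5.41 in chow vehicle cortex and from 6.28 to 6.63 in chow vehicle striatum. The 2 ranges are thus not a measure of change with Ttr. Its r to Ttr was 0.79 in striatum and 0.18 in hippocampus.

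Of the genes outside the members, those with the highest r to Ttr after subtraction of group means were named to 15. They were led by F5, coagulation factor V (0.85), Enpp2, the lysophospholipase autotaxin (0.83), Mfrp, a frizzled-related membrane protein (0.83), Slco1a5, an organic anion transporter (0.80), and Ace, angiotensin-converting enzyme (0.80). The others were Cldn2, a claudin of leaky epithelia, Mdk, Cltrn, the homeodomain factor Otx2 (probe set 1375465_at), Pla2g5, Col8a2, Slc13a4, Mdfic, Mmp14 and Cdkn1c, with r from 0.74 to 0.79. The other Otx2 probe set, which stood for Otx2 in the list of choroid plexus genes, had an r of -0.043. Of the 15, 7 were on the list of other choroid plexus genes and 8 on none of the lists. In cortex the same r was 0.84 for F5 and 0.86 for Mfrp, but 0.21 for Slc13a4 and 0.18 for Cdkn1c.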

How the data were processed

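The values were deposited as a series matrix of linear intensities from Affymetrix rat genome arrays, which the authors normalized by RMA in R 2.7.2 according to the submitters' processing notes. Log2 was taken of these deposited intensities, whereas log2 values had been assumed when the tests were set down. Of 31099 probe sets, 57 controls were left out and 31042 were tested without a filter on dim signals. The annotation gave 1 symbol to 20826 probe sets, several to 436 and none to 9780. A probe set listed for Ttr together with other genes was left out by that rule. Array medians lay between 93.5 and 101 in intensity, and the number of arrays limits the precision.

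Tests were run in R 4.3.3 with limma 3.58.1 (lmFit and eBayes with an intensity trend), per region over 20 arrays for drug and vehicle comparisons. Region contrasts and F tests used all 60 arrays with the animal number as a random block (consensus correlation 0.13). P-values were adjusted by the Benjamini-Hochberg method over all 31042 probe sets, with a threshold of 0.05. The procedure was tested on simulated data. Every member probe set was described, the gene's main probe set being the one with the highest mean, and the 15 other genes most like Ttr were named by Pearson's r. Alternatives were quantile normalization, centring, a filter at a mean log2 level of 6, a robust fit, no trend, covariates, blocks and leaving out each array. The members and lists were chosen with earlier results of these data known. The study's own methods for these arrays were not given in the sources used here. Figures were drawn with matplotlib 3.10.9.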

Additional observations from a re-analysis of the deposited data

Results flagged for a closer look

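Of 120 groups of 5 arrays (10 probe sets in 12 groups), 20 held 1 array that stood apart by Dixon's criterion (gap over range above 0.71). In 19 of them it was the highest array. The criterion flags about 1 in 20 independent normal samples. The 10 probe sets share the same arrays and vary together, so that rate is not a background for these 120 groups. The rate over all probe sets was not computed. Injection vehicle striatum array 2 stood apart for Igfbp2 (11.80), Kl (6.49), Prlr 1370384_a_at (8.64), Prlr 1370789_a_at (7.69), Aqp1 1369625_at (8.32), Aqp1 1387651_at (8.49) and Folr1 (10.93). Chow vehicle hippocampus array 5 stood apart for Ttr (13.14), Sostdc1 (8.43), Prlr 1370384_a_at (5.85), Prlr 1370789_a_at (4.49) and Aqp1 1369625_at (5.40). Injection vehicle cortex array 5 stood apart for Ttr (12.74), Sostdc1 (7.49) and Kl (4.17). Lamotrigine cortex array 3 stood apart for Igfbp2 (9.68) and Aqp1 1369625_at (5.73). The remaining ones were LiCl hippocampus array 2 for Kl (5.63), lamotrigine hippocampus array 1 for Prlr 1370789_a_at (4.83) and, as the lowest array, chow vehicle striatum array 2 for Aqp1 1369625_at (4.11). Groups with 2 or 3 high arrays, such as LiCl and lamotrigine striatum, cannot be singled out by this criterion.

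The LiCl effect on Prlr 1369493_at differed between regions by limma's F test over 60 arrays (adjusted p = 0.00793), which called 17.2% of all probe sets. By the same test the call was lost after quantile normalization (adjusted p = 0.0576) and with array spread as a covariate (adjusted p = 0.763).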

How the results depend on the processing

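Results below are the number of the 10 member probe sets called in each comparison and the difference of the main probe set of each of the 7 genes. The shares of all probe sets called that are given above belong to the main fit. The counts below thus have no background from their own setting beside them and are not read as results about the members. With a robust fit the number called was 1 for LiCl in hippocampus, 5 for LiCl in cortex, 1 between the vehicles in cortex, and 1 for the LiCl minus lamotrigine effect in hippocampus and 1 in cortex. Without dim probe sets it was 1 for LiCl in cortex, 0 for hippocampus versus cortex and 0 for the LiCl F test, Prlr 1369493_at being below the filter. With array spread as a covariate it was 0 for LiCl in cortex and 0 for the LiCl F test, and with quantile normalization 0 for that F test. With other choroid plexus genes as a covariate it was 1 between the vehicles in hippocampus, Prlr 1370384_a_at with -0.48 (adjusted p = 0.0409) against 0.90 without it. The replicate numbers did not pair the samples (correlations from -0.54 to 0.24), and the fit with a replicate block called 1 between the vehicles in cortex. Leaving out 1 array gave 2 to 3 for LiCl in cortex, 0 to 1 between the vehicles in cortex, 0 to 2 for hippocampus versus cortex, 1 to 4 for striatum versus cortex and 0 to 1 for hippocampus versus striatum.

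For the main probe sets, directions turned for uncalled differences, and their cause was not tested. With other choroid plexus genes as a covariate, LiCl differences were -0.038 for Igfbp2 in hippocampus, -0.068 for Folr1, -0.13 for Igfbp2 and -0.10 for Sostdc1 in cortex, and -0.12 for Aqp1 and -0.14 for Prlr in striatum. Lamotrigine differences were 0.049 for Folr1, 0.93 for Igfbp2, 0.039 for Kl, 0.053 for Prlr, 0.47 for Sostdc1 and 1.49 for Ttr in hippocampus, 0.00036 for Folr1 and 0.035 for Kl in cortex, and -0.15 for Aqp1, -0.15 for Folr1, -0.075 for Igfbp2, -0.19 for Kl and -0.54 for Sostdc1 in striatum. Between the vehicles they were -0.18 for Aqp1, -0.0033 for Folr1, -0.57 for Igfbp2, -0.26 for Kl, -0.14 for Prlr, -0.68 for Sostdc1 and -0.83 for Ttr in hippocampus, -0.031 for Kl in cortex, and -0.085 for Folr1 and -0.15 for Kl in striatum. With the robust fit they were -0.016 for Kl with LiCl in hippocampus, 0.28 for Igfbp2 and 0.030 for Prlr with lamotrigine in hippocampus, 0.019 for Kl with lamotrigine in cortex, and between the vehicles -0.035 for Aqp1, -0.029 for Kl and -0.10 for Prlr in hippocampus and -0.011 for Kl in cortex. Aqp1 between the vehicles in hippocampus was -0.0087 after centring and -0.024 after quantile normalization. With array spread as a covariate they were 0.041 for Aqp1 with LiCl in hippocampus, -0.084 for Kl with LiCl in cortex, -0.064 for Aqp1 with LiCl in striatum, -0.061 for Aqp1 with lamotrigine in cortex, 0.054 for Igfbp2 in hippocampus versus cortex, and -0.47 for Kl, 0.0015 for Prlr and -0.50 for Sostdc1 in hippocampus versus striatum.

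Leaving out 1 array, LiCl differences in hippocampus ran from -0.20 to 0.49 for Igfbp2, -0.12 to 0.36 for Kl and -0.029 to 1.52 for Sostdc1, and that of Prlr in striatum from -0.042 to 0.089. Lamotrigine differences ran from -0.37 to 0.45 for Igfbp2 and -0.20 to 0.0094 for Prlr in hippocampus, from -0.022 to 0.089 for Aqp1, -0.37 to 0.060 for Folr1, -0.087 to 0.066 for Kl and -0.72 to 0.052 for Sostdc1 in cortex, and from -0.11 to 0.26 for Aqp1, -0.0045 to 1.66 for Folr1, -0.024 to 0.90 for Kl, -0.44 to 1.86 for Sostdc1 and -1.04 to 0.82 for Ttr in striatum. Between the vehicles they ran from -0.065 to 0.11 for Aqp1 and -0.080 to 0.13 for Prlr in hippocampus, and from -0.053 to 0.094 for Kl in cortex. Between regions they ran from -0.31 to 0.15 for Igfbp2 in hippocampus versus cortex, and in hippocampus versus striatum from -0.44 to 0.40 for Folr1, -0.21 to 0.27 for Kl, -0.020 to 1.09 for Sostdc1 and -0.77 to 0.26 for Ttr.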

Other observations

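On the 8 arrays with Ttr at 14 or more, Kl measured 8.15 and 7.78 on LiCl striatum arrays 1 and 2, 6.09 and 6.49 on lamotrigine striatum arrays 3 and 5, 6.49 on injection vehicle striatum array 2, 5.63 on LiCl hippocampus array 2, and 5.97 and 5.09 on injection vehicle hippocampus arrays 1 and 3. Prlr 1369493_at measured 5.57 and 5.77 on the same LiCl striatum arrays and 6.43 and 6.27 on the same lamotrigine striatum arrays. The array with the highest Kl level was thus not among those with the highest level of this Prlr probe set. These arrays are single values and were not compared as groups.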
